A study of Mus musculus with 14 samples.

Results

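The genes described here are 8 mucosal defence genes of the intestinal epithelium: the oxidases *Duox2* and *Nox1*, the maturation factor *Duoxa2*, the nitric oxide synthase *Nos2*, and the genes for the secreted or secretion-linked proteins lipocalin 2 (*Lcn2*), the polymeric immunoglobulin receptor (*Pigr*), *Dmbt1* and serum amyloid A1 (*Saa1*). They were chosen by symbol from the 18781 genes of the deposited table, partly because *Dmbt1* was higher in the double knockout, so its level there is a description and not a test. All 8 were in the table, and 6 of the 8 passed a filter on low values (mean log2 value over the 14 libraries no lower than 3.32) and entered the tests. Total RNA came from mouse small intestinal organoids, crypt-derived epithelial cultures grown in Matrigel without treatment. The 4 WT libraries carry floxed alleles of *Atg16l1* and *Rnaseh2b* and no Cre. Heterozygous Villin-Cre, which deletes floxed alleles in the intestinal epithelium, is carried by 4 *Atg16l1*ΔIEC libraries, by 2 *Rnaseh2b*ΔIEC libraries and by the 4 *Atg16l1/Rnaseh2b*ΔIEC libraries, in which both genes are deleted. The study left out 2 further *Rnaseh2b*ΔIEC samples for their read counts. *Atg16l1* encodes an autophagy protein, and *Rnaseh2b* encodes a subunit of RNase H2, which removes ribonucleotides from DNA. The age of the mice and whether each library came from its own animal or culture are not given in the sources used here, so p-values measure the spread between libraries, which may be technical.

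DUOX2 and NOX1 are the epithelial NADPH oxidases of the gut. DUOX2 releases hydrogen peroxide at the apical surface and needs DUOXA2 to leave the endoplasmic reticulum, while NOX1 makes superoxide with the subunits p22phox (*Cyba*), NOXO1 and NOXA1. NOS2 makes nitric oxide from arginine. LCN2 binds bacterial siderophores and so withholds iron, PIGR carries dimeric IgA across the epithelium into the lumen, DMBT1 is a mucin-like scavenger receptor glycoprotein that binds bacteria, and SAA1 is an acute-phase protein.

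*Duox2* (chr2:122279247-122298449, minus strand) and *Duoxa2* (chr2:122298900-122302885, plus strand, GRCm38) lie head to head, with 450 bases between the annotated genes. Between the RefSeq starts lie 672 bases, since that of *Duox2* (chr2:122298227) is inside its annotated gene. The 250 bases before the RefSeq start of *Duoxa2* (chr2:122298650-122298899, RefSeq, GRCm38.p6, plus strand) lie inside the gap of 450 bases and are shown because both genes moved together across libraries. The corresponding 250 bases of *Pigr* (chr1:130826434-130826683, plus strand) are shown because *Pigr* was the member called lower in *Atg16l1/Rnaseh2b*ΔIEC than in both single knockouts. Capitals mark the TATA motif TATAAA in the first and the E-box CACGTG in the second.
Duoxa2: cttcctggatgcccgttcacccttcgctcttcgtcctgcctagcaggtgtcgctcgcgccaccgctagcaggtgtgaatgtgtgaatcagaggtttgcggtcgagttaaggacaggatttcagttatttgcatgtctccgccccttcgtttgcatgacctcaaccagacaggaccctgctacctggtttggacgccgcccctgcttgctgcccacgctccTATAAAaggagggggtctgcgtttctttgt
Pigr: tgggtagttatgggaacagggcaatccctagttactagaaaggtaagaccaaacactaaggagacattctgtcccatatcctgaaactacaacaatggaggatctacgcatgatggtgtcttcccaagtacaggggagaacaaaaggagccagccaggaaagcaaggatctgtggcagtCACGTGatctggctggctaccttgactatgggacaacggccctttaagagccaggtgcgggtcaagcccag

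Promoter windows of 300 bases (250 before to 50 after the start) were found in the RefSeq table for 6 of the 8 members, and *Nos2* and *Dmbt1* had no entry. TATAAA occurred on either strand in 1 of the 6, *Duoxa2*, 30 bases before the start, and in 13.6% of all 32851 promoters. CACGTG occurred in 1 of the 6, *Pigr*, 71 bases before the start, and in 7.15% of all promoters. Both of these motifs were picked after the sequences had been seen. The kB motif occurred in *Nox1* and in 4.51% of all promoters, and the STAT motif TTCNNNGAA occurred in *Pigr*, 39 bases after the start, and in 8.3%. A match is a description of letters and not a bound site.

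Several features of the libraries bear on every comparison. Lane 1, as the library names give it, held every WT library and *Atg16l1/Rnaseh2b*ΔIEC 3 and 4, and lane 2 held the single knockouts and *Atg16l1/Rnaseh2b*ΔIEC 1 and 2, so lane and genotype cannot be told apart when a single knockout is set against WT. *Xist*, expressed from the inactive X chromosome of females, was high (13.24 to 13.78) in WT 3 and 4, *Atg16l1*ΔIEC 1 and 2 and *Atg16l1/Rnaseh2b*ΔIEC 3 and 4, and low (7.56 to 7.80) in the other 8 libraries. Libraries 1 and 2, and 3 and 4, of a genotype deviated together from their genotype mean across genes, with r from 0.31 to 0.85 in 6 of 6 such pairs. *Rnaseh2b* was lower in all 6 libraries with its deletion than in the other 8 (8.41 to 8.72), and less so in *Atg16l1/Rnaseh2b*ΔIEC (7.68 to 7.92) than in *Rnaseh2b*ΔIEC (7.15 and 7.21). *Atg16l1* was lower in all 8 with its deletion than in the other 6 (9.43 to 9.54), and again less so in *Atg16l1/Rnaseh2b*ΔIEC (8.14 to 8.57) than in *Atg16l1*ΔIEC (6.73 to 7.35). The epithelial markers *Epcam* (14.64 to 14.76) and *Vil1* (14.10 to 14.47) were high in every library, whereas *Ptprc* of leukocytes (0.47 to 0.53), *S100a9* of neutrophils (-1.81 to -1.79) and *Col1a1* of stroma (2.03 to 2.13) lay below the filter in all 14. Other genes of these lists passed it: 3 of 9 leukocyte genes (*Cd68*, *Itgam* and *Cd74*, means 6.04, 5.63 and 3.59) and 3 of 7 stromal and endothelial genes (*Vim*, *Pdgfrb* and *Pecam1*, means 7.87, 5.46 and 4.37), but none of the 3 neutrophil genes in the table. The mean over the leukocyte list was 1.44 to 1.52 and that over the stromal list 3.07 to 3.19 in all libraries. *S100a8* had no row.

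The members differed widely in level. On the log2 scale per kilobase of annotated exon, the mean over 14 libraries was 13.71 for *Pigr*, 9.53 for *Dmbt1*, 4.25 for *Nos2*, 4.12 for *Duox2*, 4.09 for *Duoxa2*, 2.04 for *Lcn2*, 0.50 for *Nox1* and -3.28 for *Saa1*. *Duox2*, *Duoxa2* and *Nos2* thus stood closer to one another than the SD of *Duox2* over libraries (0.43). The deposited values varied less at low levels, with a median SD over libraries of 0.14 for genes at 6 to 8, 0.11 at 4 to 6, 0.06 at 3 to 4 and 0.04 at 2 to 3. Differences of *Lcn2*, *Nox1* and *Saa1*, and to a lesser degree of *Duoxa2*, may thus be understated by the authors' transformation, which is not named.

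**Figure D1:**
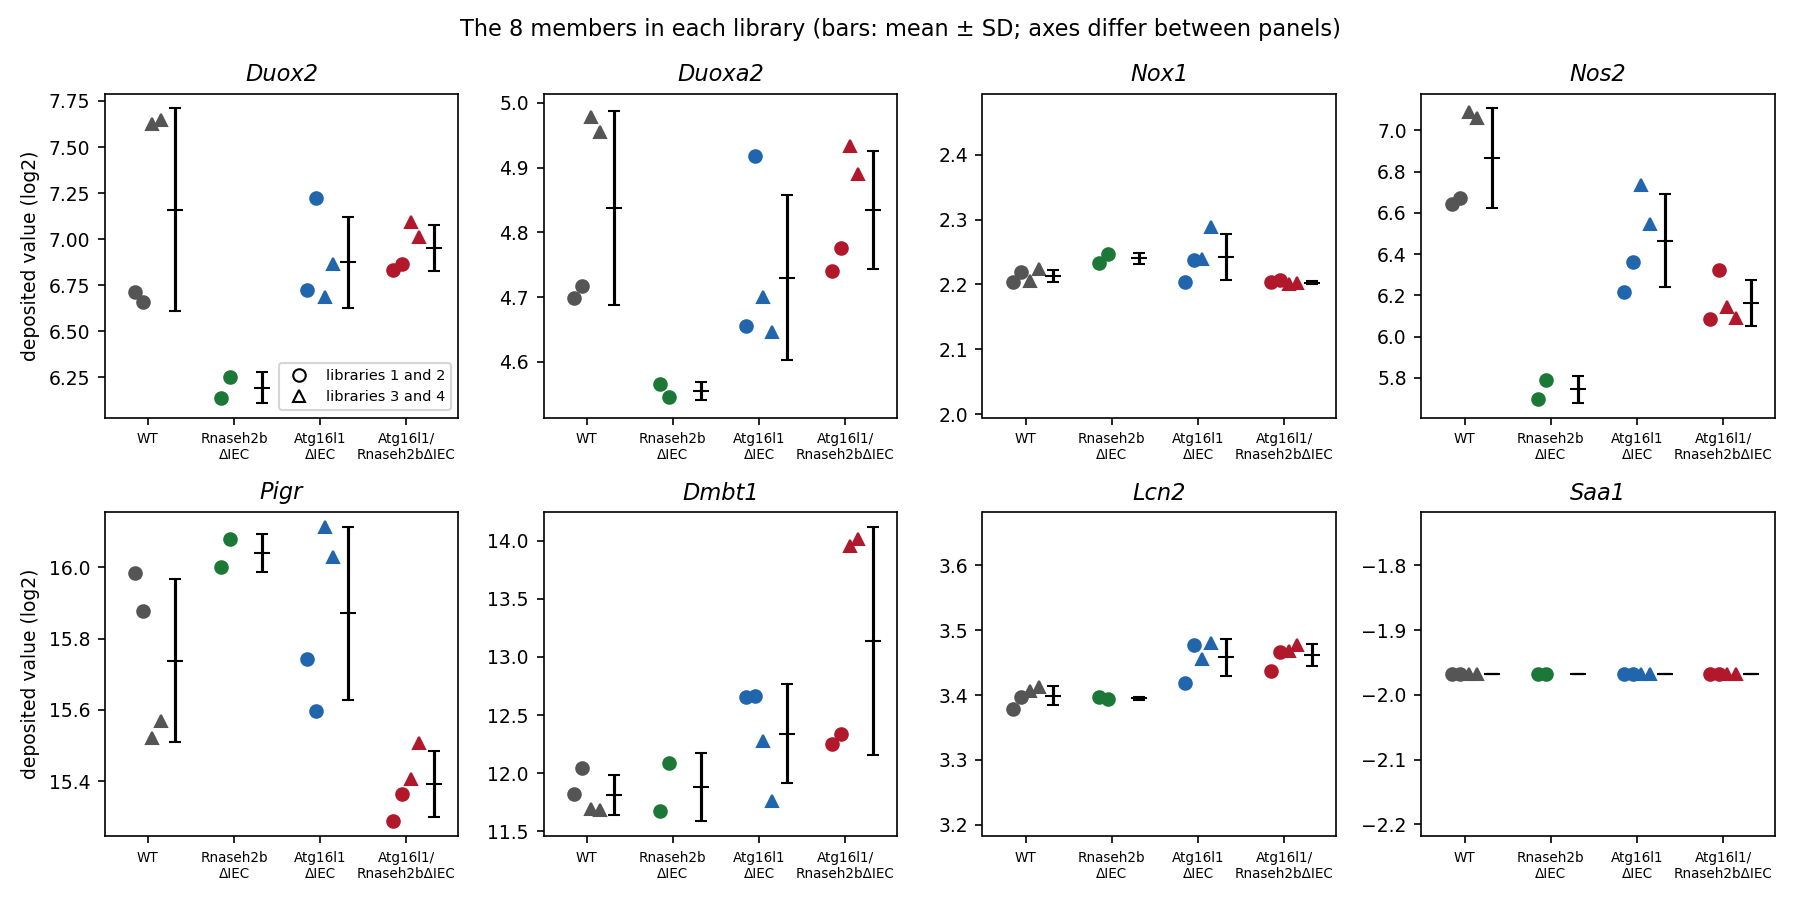
Deposited log2 value (y axis, a separate scale in each panel) of the 8 members in each library by genotype (x axis), with circles for libraries 1 and 2, triangles for libraries 3 and 4, and bars for the mean ± SD. *Duox2*, *Duoxa2* and *Nos2* are lowest in *Rnaseh2b*ΔIEC, *Pigr* is lowest in *Atg16l1/Rnaseh2b*ΔIEC, and *Dmbt1* is highest in *Atg16l1/Rnaseh2b*ΔIEC 3 and 4 (13.96 and 14.02).

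*Duox2* was lowest in *Rnaseh2b*ΔIEC organoids. Its log2 values were 6.13 and 6.25 in *Rnaseh2b*ΔIEC, and 6.71, 6.66, 7.62 and 7.65 in WT 1 to 4. They were 6.72, 7.22, 6.68 and 6.86 in *Atg16l1*ΔIEC, and 6.83, 6.87, 7.10 and 7.01 in *Atg16l1/Rnaseh2b*ΔIEC. Both *Rnaseh2b*ΔIEC libraries lay below the other 12, and the WT libraries fell into a low and a high pair whose means, 6.68 and 7.64, stood nearly as far apart as *Rnaseh2b*ΔIEC and WT. The genotype means rose from *Rnaseh2b*ΔIEC (6.19 ± 0.08, SD, n = 2) through *Atg16l1*ΔIEC (6.87 ± 0.25, n = 4) and *Atg16l1/Rnaseh2b*ΔIEC (6.95 ± 0.12, n = 4) to WT (7.16 ± 0.55, n = 4), and the last 3 overlapped.

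*Duoxa2* followed *Duox2* with a smaller range, at a lower level where deposited values varied less. It stood at 4.57 and 4.55 in *Rnaseh2b*ΔIEC, at 4.66, 4.92, 4.70 and 4.65 in *Atg16l1*ΔIEC, at 4.74, 4.78, 4.93 and 4.89 in *Atg16l1/Rnaseh2b*ΔIEC, and at 4.70, 4.72, 4.98 and 4.96 in WT. Again both *Rnaseh2b*ΔIEC libraries were the lowest of all 14, and the other genotypes overlapped. Over the 7 means of paired libraries, *Duox2* and *Duoxa2* correlated with Pearson's r = 0.94 (exact permutation p = 0.000992) and Spearman's rho = 0.96 (exact permutation p = 0.002778), two-sided. This was the only relation tested, so the p-values needed no adjustment, and r was 0.89 without the 2 means farthest from the median of *Duox2*. Lane 1 holds 3 and lane 2 holds 4 of the 7 means, too few for a value within a lane. *Duoxa2* shares 682 exonic bases with its antisense neighbour *Duoxa1*, whose level was near the bottom of the table (-1.33 to -1.32). The strand setting of the authors' counting is not given in the sources used here, so reads of that stretch cannot be assigned to either gene with certainty.

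**Figure D2:**
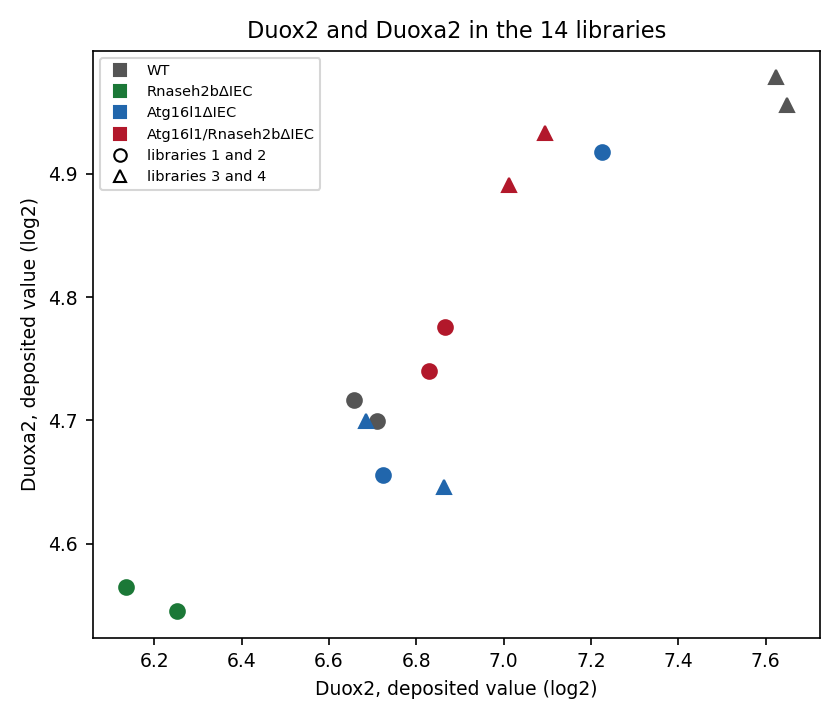
*Duoxa2* (y axis) against *Duox2* (x axis), both as deposited log2 values, with 1 point per library coloured by genotype and shaped by library pair. Both values rise together from the *Rnaseh2b*ΔIEC libraries (6.13 and 6.25 for *Duox2*) at the lower left to WT 3 and 4 (7.62 and 7.65) at the upper right.

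*Nos2* had its lowest level in *Rnaseh2b*ΔIEC too, at 5.70 and 5.79. It stood at 6.22, 6.36, 6.73 and 6.55 in *Atg16l1*ΔIEC, at 6.09, 6.33, 6.14 and 6.09 in *Atg16l1/Rnaseh2b*ΔIEC, and at 6.64, 6.67, 7.09 and 7.06 in WT. The *Rnaseh2b*ΔIEC libraries lay below every other library, and the *Atg16l1/Rnaseh2b*ΔIEC libraries below every WT library. The means were 5.75 ± 0.07 (SD, n = 2) in *Rnaseh2b*ΔIEC, 6.16 ± 0.11 (n = 4) in *Atg16l1/Rnaseh2b*ΔIEC, 6.46 ± 0.23 (n = 4) in *Atg16l1*ΔIEC and 6.87 ± 0.24 (n = 4) in WT.

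In *Rnaseh2b*ΔIEC against WT organoids, 3 of the 6 members tested passed the threshold (limma, Benjamini-Hochberg adjusted p under 0.05 over all 12802 genes tested), against 26.7% of all genes. These were the dual oxidase, its maturation factor and the nitric oxide synthase, and all 3 fell. *Nos2* fell by 1.12 on the log2 scale (SE 0.15, limma adjusted p = 0.000298), which is 2.17-fold. *Duox2* fell by 0.97 (SE 0.26, adjusted p = 0.015), or 1.96-fold, and *Duoxa2* fell by 0.28 (SE 0.09, adjusted p = 0.042). *Lcn2* (-0.00, 95% CI -0.06 to 0.05), *Pigr* (0.30, -0.02 to 0.62) and *Dmbt1* (0.07, -0.91 to 1.04) did not pass, and the interval of *Dmbt1* spans more than 1 log2 unit.

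The call for *Nos2* held without any single library, whereas the adjusted p of *Duox2* was 0.115 without *Rnaseh2b*ΔIEC 1 (-0.91) and 0.079 without *Rnaseh2b*ΔIEC 2 (-1.03). That of *Duoxa2* was 0.163 and 0.187 without *Rnaseh2b*ΔIEC 1 and 2 (-0.29 and -0.27), and 0.095 and 0.093 without WT 3 and 4 (-0.24 in both). In the 8 libraries with low *Xist*, 2 per genotype, the differences were -0.91 for *Nos2*, -0.49 for *Duox2* and -0.15 for *Duoxa2*, with limma adjusted p from 9.93e-05 to 0.025. The 2 libraries of each genotype are 1 neighbouring pair there, so these p-values hold no spread between pairs. In that fit 4747 of all genes passed, against 3424 with all 14 libraries. With the paired libraries averaged, no member passed in this or any other comparison (limma, adjusted p = 0.13 for *Nos2* here), and 0 to 2 of all genes did. Enterocyte markers moved as well in this comparison: 9 of 11 genes were higher and none lower (median 1.22, all genes 0.00), against 26.7% of all genes called. Of the other types, 3 of 8 goblet (median -0.39), 3 of 9 stem (-0.24), 2 of 5 tuft (-0.21), 1 of 9 enteroendocrine (-0.32) and 1 of 11 Paneth (0.02) genes were lower and none higher. The enteroendocrine and Paneth counts were below the share of all genes, and the goblet, stem and tuft counts rest on few genes. The part of these markers in the member differences was not tested, and in bulk organoid RNA fewer cells of a type and less RNA per cell cannot be told apart.

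In *Atg16l1*ΔIEC against WT organoids, 1 of the 6 members passed, *Nos2*, against 19.1% of all genes. *Nos2* fell by 0.40 (SE 0.12, limma adjusted p = 0.036), with overlapping libraries. This call was lost without *Atg16l1*ΔIEC 1, 2 or 4 (-0.32, -0.37 and -0.43) or WT 3 or 4 (-0.33 and -0.34), with adjusted p from 0.059 to 0.104, and in the libraries with low *Xist* the difference was -0.01 (adjusted p = 0.92). The other differences were -0.29 for *Duox2* (95% CI -0.74 to 0.17), -0.11 for *Duoxa2* (-0.27 to 0.06), 0.13 for *Pigr* (-0.13 to 0.39), 0.53 for *Dmbt1* (-0.27 to 1.32) and 0.06 for *Lcn2* (0.01 to 0.11, adjusted p = 0.075). *Lcn2* was higher in all 4 *Atg16l1*ΔIEC libraries than in all 4 WT libraries, and without *Atg16l1*ΔIEC 1 it passed (0.07, adjusted p = 0.041).

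*Rnaseh2b*ΔIEC and *Atg16l1*ΔIEC libraries were all run in lane 2, so this comparison is free of the lane difference. Of the 6 members 1 passed, *Nos2*, against 6.81% of all genes. *Nos2* was lower in *Rnaseh2b*ΔIEC (difference -0.72, SE 0.15, limma adjusted p = 0.014), with both *Rnaseh2b*ΔIEC libraries below all 4 *Atg16l1*ΔIEC libraries. The call was lost without *Rnaseh2b*ΔIEC 1 (-0.67, adjusted p = 0.151) or *Rnaseh2b*ΔIEC 2 (-0.77, adjusted p = 0.122). *Duox2* differed by -0.68 (95% CI -1.24 to -0.13, adjusted p = 0.132), *Duoxa2* by -0.17 (-0.38 to 0.03), *Lcn2* by -0.06 (-0.12 to -0.00), *Pigr* by 0.17 (-0.15 to 0.49) and *Dmbt1* by -0.46 (-1.43 to 0.51). *Duox2* passed in a fit of the lane 2 libraries alone (adjusted p = 0.022).

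*Pigr*, the transporter of IgA, had its lowest level in *Atg16l1/Rnaseh2b*ΔIEC. Its values there were 15.29, 15.36, 15.41 and 15.51, against 16.001 and 16.078 in *Rnaseh2b*ΔIEC, and 15.74, 15.60, 16.11 and 16.03 in *Atg16l1*ΔIEC. WT libraries stood at 15.98, 15.88, 15.52 and 15.57. Every *Atg16l1/Rnaseh2b*ΔIEC library lay below every other library, WT 3 by the narrowest margin. The means were 15.39 ± 0.09 (SD, n = 4) in *Atg16l1/Rnaseh2b*ΔIEC, 15.74 ± 0.23 (n = 4) in WT, 15.87 ± 0.24 (n = 4) in *Atg16l1*ΔIEC and 16.04 ± 0.05 (n = 2) in *Rnaseh2b*ΔIEC, of which the last 2 overlapped and WT overlapped with *Atg16l1*ΔIEC.

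Between *Atg16l1/Rnaseh2b*ΔIEC and *Rnaseh2b*ΔIEC, 3 of the 5 members tested passed, against 25.5% of all genes. *Pigr* was lower in *Atg16l1/Rnaseh2b*ΔIEC, where it fell by 0.65 (SE 0.15, limma adjusted p = 0.0075), or 1.57-fold. *Duox2* rose by 0.76 (SE 0.26, adjusted p = 0.045) and *Duoxa2* by 0.28 (SE 0.09, adjusted p = 0.044). *Nos2* (0.42, 95% CI 0.09 to 0.74, adjusted p = 0.058) and *Lcn2* (0.07, 0.01 to 0.12, adjusted p = 0.085) did not pass. This comparison uses the same 2 *Rnaseh2b*ΔIEC libraries as the one against WT, so the lower *Duox2* and *Duoxa2* values in *Rnaseh2b*ΔIEC enter both.

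The calls for the *Duox2* pair rested on single libraries. That of *Duox2* was lost without any of the 6 libraries in turn, *Rnaseh2b*ΔIEC 1 or 2 or *Atg16l1/Rnaseh2b*ΔIEC 1 to 4 (0.70 to 0.82, adjusted p from 0.052 to 0.206). That of *Duoxa2* was lost without *Rnaseh2b*ΔIEC 1 or 2 (0.29 and 0.27) or *Atg16l1/Rnaseh2b*ΔIEC 3 or 4 (0.25 and 0.26), and that of *Pigr* without *Rnaseh2b*ΔIEC 2 (-0.61, adjusted p = 0.089). With lane as a covariate *Pigr* alone of the 5 passed.

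Between *Atg16l1/Rnaseh2b*ΔIEC and *Atg16l1*ΔIEC, 1 of the 5 members passed, *Pigr*, against 25.1% of all genes. In *Atg16l1/Rnaseh2b*ΔIEC *Pigr* fell by 0.48 (SE 0.12, limma adjusted p = 0.014), or 1.39-fold, with no overlap, and the call held without any single library. *Nos2* differed by -0.30 (95% CI -0.57 to -0.04, adjusted p = 0.086) and passed without *Atg16l1*ΔIEC 1 (-0.39, adjusted p = 0.036). *Duox2* differed by 0.08 (-0.38 to 0.53), *Duoxa2* by 0.10 (-0.06 to 0.27) and *Lcn2* by 0.00 (-0.04 to 0.05).

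Enterocyte markers moved with *Pigr* from genotype to genotype, but not in every library. The mean log2 level of 11 enterocyte genes, among them *Sis* and *Fabp1*, was 13.89 and 14.01 in *Rnaseh2b*ΔIEC, 12.93 to 13.61 in *Atg16l1*ΔIEC, 12.67 to 13.32 in WT and 12.60 to 13.09 in *Atg16l1/Rnaseh2b*ΔIEC. In *Atg16l1/Rnaseh2b*ΔIEC against *Rnaseh2b*ΔIEC 10 of 11 were lower and none higher (median -1.15), and against *Atg16l1*ΔIEC 4 of 11 were lower and none higher (median -0.52). Of all genes 25.5% and 25.1% were called in these comparisons. The list member *Alpi* tended the other way against *Atg16l1*ΔIEC and WT only, at 10.92 to 11.72 in *Atg16l1/Rnaseh2b*ΔIEC, 10.72 to 11.31 in *Atg16l1*ΔIEC and 10.22 to 11.20 in WT. In *Rnaseh2b*ΔIEC *Alpi* stood at 11.67 and 11.76. Among the WT libraries both *Pigr* and the enterocyte mean were higher in 1 and 2 than in 3 and 4. Among *Atg16l1*ΔIEC both were higher in 3 and 4 than in 1 and 2. Among *Atg16l1/Rnaseh2b*ΔIEC *Pigr* was higher in 3 and 4, whereas the enterocyte mean was lower there (12.60 and 12.65, against 12.75 and 13.09). The part of enterocyte content in the *Pigr* difference was not tested.

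**Figure D3:**
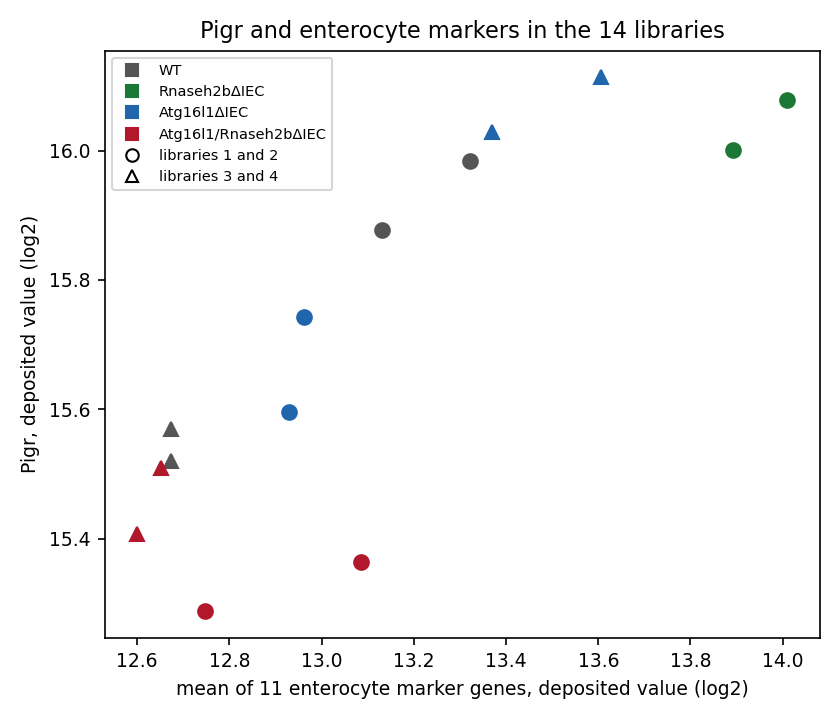
*Pigr* (y axis) against the mean of 11 enterocyte marker genes (x axis), both as deposited log2 values, with 1 point per library coloured by genotype and shaped by library pair. *Pigr* and the enterocyte mean rise together from genotype to genotype, with *Atg16l1/Rnaseh2b*ΔIEC (15.29 to 15.51) at the bottom and *Rnaseh2b*ΔIEC (16.001 and 16.078) near the top. Single libraries depart from this. *Atg16l1/Rnaseh2b*ΔIEC 2 has an enterocyte mean of 13.09, above *Atg16l1*ΔIEC 1 and 2 (12.96 and 12.93), and lower *Pigr* (15.36, against 15.74 and 15.60).

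Whether *Rnaseh2b* deletion had a different effect with and without *Atg16l1* deletion was tested as a difference of differences, *Atg16l1/Rnaseh2b*ΔIEC against *Atg16l1*ΔIEC minus *Rnaseh2b*ΔIEC against WT. Of the 5 members tested 4 passed, against 35.1% of all genes. The difference was 1.04 for *Duox2* (SE 0.33, limma adjusted p = 0.027), 0.39 for *Duoxa2* (SE 0.12, adjusted p = 0.025) and 0.82 for *Nos2* (SE 0.19, adjusted p = 0.0061). The 3 genes were thus lower in *Rnaseh2b*ΔIEC than in WT, whereas with *Atg16l1* deleted the difference was 0.08, 0.10 and -0.30. In the former lane and genotype cannot be told apart, and in the latter *Atg16l1/Rnaseh2b*ΔIEC alone spans both lanes. The difference of differences rests on *Atg16l1/Rnaseh2b*ΔIEC libraries, in which both deleted genes had fallen less than in the single knockouts, and the part of that in the result was not tested. For *Pigr* it was -0.78 (SE 0.19, adjusted p = 0.0074), from 0.30 with *Atg16l1* intact to -0.48 with it deleted, and for *Lcn2* 0.01 (95% CI -0.07 to 0.08). The calls for *Nos2* and *Pigr* held without any single library. That for *Duox2* was lost without *Rnaseh2b*ΔIEC 1 or 2 (0.99 and 1.10) or *Atg16l1*ΔIEC 3 (0.98), with adjusted p from 0.050 to 0.099, and that for *Duoxa2* without *Rnaseh2b*ΔIEC 1 or 2 (0.40 and 0.38). With lane as a covariate *Pigr* alone of the 5 passed.

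**Figure D4:**
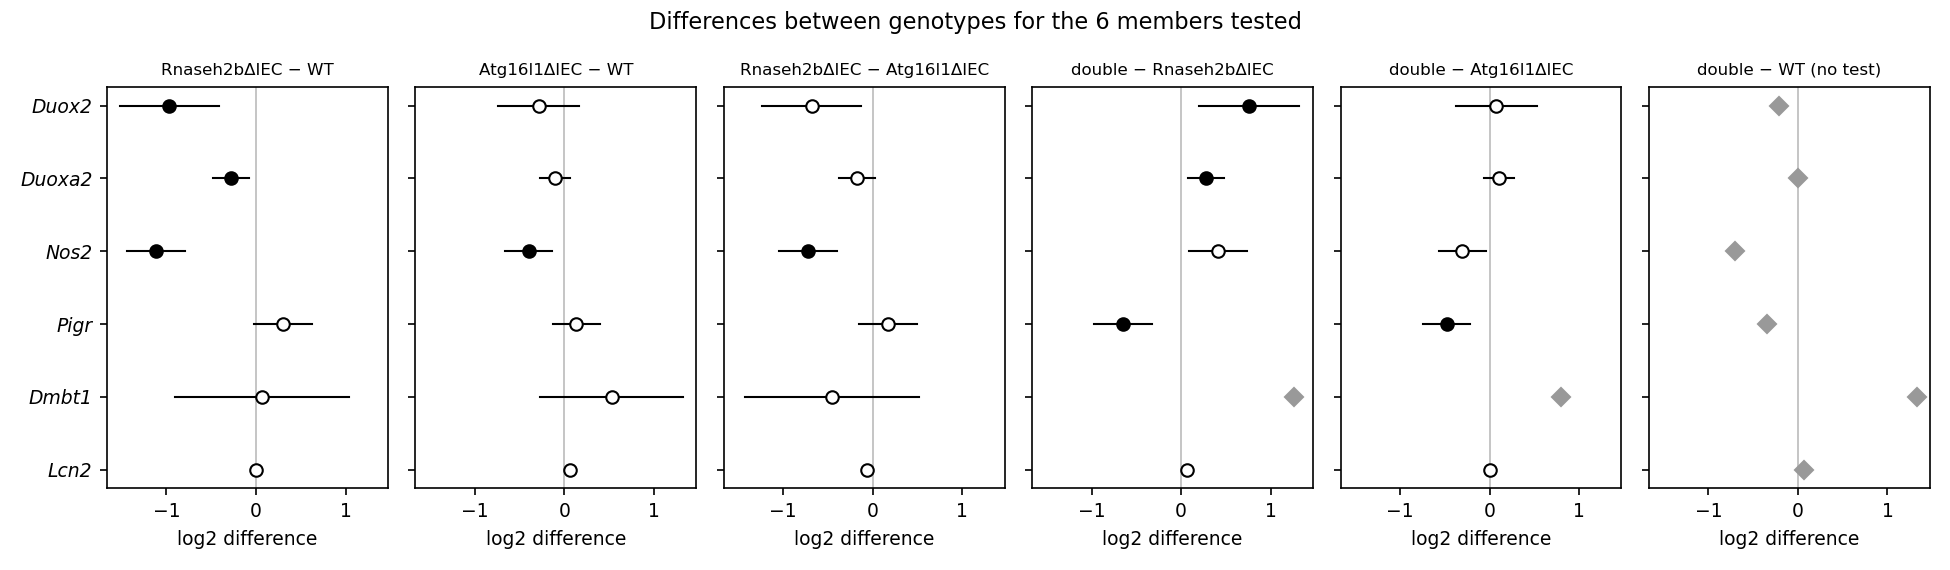
Log2 difference between 2 genotypes (x axis) for the 6 members tested (y axis), with lines for the 95% confidence interval, filled circles for adjusted p under 0.05 and open circles otherwise. Grey diamonds are differences with no test, since the members were chosen partly on them. *Nos2* is filled in the 3 comparisons of single knockouts and WT (-1.12, -0.40 and -0.72), and *Pigr* in both comparisons of the double with a single knockout (-0.65 and -0.48).

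*Dmbt1* (chr7:131032053-131121630, plus strand), the gene on which the choice partly rested, was highest in *Atg16l1/Rnaseh2b*ΔIEC, and its values were 12.25, 12.33, 13.96 and 14.02 there. It stood at 11.82, 12.05, 11.69 and 11.68 in WT, at 11.67 and 12.09 in *Rnaseh2b*ΔIEC, and at 12.65, 12.67, 12.28 and 11.76 in *Atg16l1*ΔIEC. All *Atg16l1/Rnaseh2b*ΔIEC libraries were above WT and *Rnaseh2b*ΔIEC, but *Atg16l1/Rnaseh2b*ΔIEC 1 and 2 lay below *Atg16l1*ΔIEC 1 and 2. The mean in *Atg16l1/Rnaseh2b*ΔIEC was 1.33 above WT, 1.26 above *Rnaseh2b*ΔIEC and 0.80 above *Atg16l1*ΔIEC, and the difference of differences was 0.74. The *Atg16l1/Rnaseh2b*ΔIEC libraries fell into 2 pairs, with means of 12.29 (lane 2, low *Xist*) and 13.99 (lane 1, high *Xist*). Against WT the difference was 0.36 among the libraries with low *Xist* and 2.18 among those of lane 1. WT 3 and 4, also of lane 1 and high in *Xist*, had the lowest WT values (11.69 and 11.68).

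Of the other members in *Atg16l1/Rnaseh2b*ΔIEC against WT, which are given with no test, *Nos2* differed by -0.70, *Pigr* by -0.35, *Duox2* by -0.21, *Duoxa2* by -0.00 and *Lcn2* by 0.06. *Nos2* and *Pigr* were lower in all 4 *Atg16l1/Rnaseh2b*ΔIEC libraries than in all 4 WT libraries, *Lcn2* was higher in all 4, and the *Duox2* pair overlapped. The share of all genes separated in this way was not counted, so nothing is read from it.

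*Lcn2* was low throughout, with a mean of 3.43 just above the filter. It ranged from 3.38 to 3.41 in WT, from 3.39 to 3.40 in *Rnaseh2b*ΔIEC, from 3.42 to 3.48 in *Atg16l1*ΔIEC and from 3.44 to 3.48 in *Atg16l1/Rnaseh2b*ΔIEC. The 8 libraries with *Atg16l1* deletion were thus all above the 6 without. *Nox1* (mean 2.22) was below the filter, at 2.20 to 2.22 in WT, 2.23 to 2.25 in *Rnaseh2b*ΔIEC, 2.20 to 2.29 in *Atg16l1*ΔIEC and 2.20 to 2.21 in *Atg16l1/Rnaseh2b*ΔIEC, and it shares 399 exonic bases with its antisense neighbour *Cstf2*. *Saa1* stood at -1.97 in every library, at the bottom of the table, so no difference could be seen at this level.

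Partners and neighbours of the members were read from lists of pathway genes, each without the members. Their counts stand beside the shares of all genes called, 26.7% in *Rnaseh2b*ΔIEC against WT, 19.1% in *Atg16l1*ΔIEC against WT and 6.81% in *Rnaseh2b*ΔIEC against *Atg16l1*ΔIEC. The shares were 25.5% in *Atg16l1/Rnaseh2b*ΔIEC against *Rnaseh2b*ΔIEC and 25.1% in *Atg16l1/Rnaseh2b*ΔIEC against *Atg16l1*ΔIEC. Nothing particular to a list is read from a count near these. Of the NADPH oxidase subunits, the p22phox gene *Cyba* (9.12 to 9.75) and the NOX1 organiser *Noxo1* (8.45 to 9.26) were well above the filter in all libraries, whereas the phagocyte oxidase gene *Cybb* (-2.13) and the second dual oxidase *Duox1* (-0.81 to -0.79) were not. Of 6 oxidase genes tested, 1 was higher in each single knockout than in WT, which is not above those shares, and 3 and 2 were lower in *Atg16l1/Rnaseh2b*ΔIEC against *Rnaseh2b*ΔIEC and against *Atg16l1*ΔIEC. The NOX1 activator *Noxa1* was lower in *Rnaseh2b*ΔIEC than in *Atg16l1*ΔIEC (-0.38, limma adjusted p = 0.049). Of 12 genes of nitric oxide and arginine metabolism, 2 were higher in each single knockout against WT, a share below that of all genes. In *Atg16l1/Rnaseh2b*ΔIEC, 1 was higher and 2 lower than in *Rnaseh2b*ΔIEC, and 1 was higher and 1 lower than in *Atg16l1*ΔIEC. *Ass1*, which rebuilds the arginine precursor used by NOS2, was higher in *Rnaseh2b*ΔIEC than in *Atg16l1*ΔIEC (0.93, adjusted p = 0.00037) and than in WT (0.75, adjusted p = 0.00053), opposite in sign to *Nos2*.

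Of 14 genes for removal of peroxide and superoxide, 5 were higher in *Rnaseh2b*ΔIEC and 2 in *Atg16l1*ΔIEC than in WT, and *Atg16l1/Rnaseh2b*ΔIEC had 4 lower than in *Rnaseh2b*ΔIEC and 6 lower than in *Atg16l1*ΔIEC, with 1 higher in each. The median difference stayed small (-0.09 in both of the latter, all genes 0.00), and the shares against WT were near those of all genes. Of 2 genes tested on the siderophore axis of LCN2, 1 was higher in *Rnaseh2b*ΔIEC against WT.

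Of 18 other secreted defence proteins, 10 were higher and 3 lower in *Atg16l1/Rnaseh2b*ΔIEC against *Atg16l1*ΔIEC (median 0.30, all genes 0.00), and 6 were higher and 1 lower against *Rnaseh2b*ΔIEC (median 0.19). The list holds the goblet cell genes *Muc2*, *Tff3*, *Clca1*, *Fcgbp* and *Zg16*, and 8 of 8 goblet markers rose from *Atg16l1*ΔIEC to *Atg16l1/Rnaseh2b*ΔIEC. *Pigr* thus moved against most of the called genes of this list. *Clca1* was lower in *Rnaseh2b*ΔIEC than in *Atg16l1*ΔIEC (-0.77, limma adjusted p = 0.0032), and so was complement factor B, *Cfb* (-0.37, adjusted p = 0.0040). The lectin gene *Reg3a* was higher in *Rnaseh2b*ΔIEC than in *Atg16l1*ΔIEC (1.30, adjusted p = 0.042) and than in WT (2.53, adjusted p = 0.00037), although the close *Reg3* paralogs may share reads.

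Of 19 NF-kB response genes, 3 were higher and 3 lower in *Rnaseh2b*ΔIEC against WT, and 2 were higher and 3 lower in *Atg16l1/Rnaseh2b*ΔIEC against *Atg16l1*ΔIEC, both near the share of all genes. In *Rnaseh2b*ΔIEC against *Atg16l1*ΔIEC, where 6.81% of all genes were called, 2 were higher. These were *Tnfaip2* (0.77, limma adjusted p = 0.016) and the adhesion molecule *Icam1* (0.49, adjusted p = 0.0017). Of 19 genes of the IL-22, IL-17 and STAT3 responses, 3 were higher and 1 lower in *Rnaseh2b*ΔIEC against WT, below the share of all genes. In *Atg16l1/Rnaseh2b*ΔIEC, 2 were higher and 4 lower than in *Rnaseh2b*ΔIEC, and 1 was higher and 4 lower than in *Atg16l1*ΔIEC. *Il22ra1*, a subunit of the IL-22 receptor, was higher in *Rnaseh2b*ΔIEC than in *Atg16l1*ΔIEC (0.39, adjusted p = 0.0029). Of 15 pattern receptor genes, 1 was higher and 2 lower in *Rnaseh2b*ΔIEC against WT, again below the share of all genes.

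Across the 14 libraries, the genes whose log2 values were most like those of *Duox2* included *Atp2a3* (r = 0.95) and *Igfbp3* (0.93). For *Duoxa2* they were *Hpse* (0.96), *Cwh43* (0.95) and *Il17re* (0.94), and for *Nos2* they were *Mtss1* (0.95), *Camk2d* and *Mid1ip1* (both 0.92). *Pigr* was most like *Pex11a* (0.98), *Net1* and *Hapln4* (both 0.97), *Dmbt1* most like *Pcdhga5* (0.96), *Tshz2* (0.94) and *Serpinb6b* (0.93), and *Lcn2* most like *Abcb8* (0.93), *Lrrc26* (0.89) and *Nid2* (0.87). These are among the 3 highest of 12801 other genes for each member, over libraries that share genotype, lane and pair, and are given as a description. The mean of 9 enteroendocrine markers was 9.58 in both *Rnaseh2b*ΔIEC libraries, 9.61 to 10.02 in *Atg16l1*ΔIEC, 9.92 to 10.12 in *Atg16l1/Rnaseh2b*ΔIEC and 9.86 to 10.12 in WT. That of 7 tuft markers was 4.30 and 4.31 in *Rnaseh2b*ΔIEC and 4.31 to 4.53 elsewhere, and that of 8 goblet markers 11.21 and 10.98 in *Rnaseh2b*ΔIEC, 11.04 to 11.27 in *Atg16l1*ΔIEC and 11.52 to 11.96 in WT and *Atg16l1/Rnaseh2b*ΔIEC. All 3 lists were thus low in *Rnaseh2b*ΔIEC, where *Duox2* was lowest, but not there alone. Goblet markers were about as low in *Atg16l1*ΔIEC, and tuft markers were at 4.31 in *Atg16l1*ΔIEC 1, where *Duox2* was 6.72. The stem cell and Paneth means were lower in *Atg16l1*ΔIEC 3 (10.11 and 8.81) than in *Rnaseh2b*ΔIEC 1 (10.36 and 9.21) and 2 (10.33 and 9.05). The part of these lists in the *Duox2* differences was not tested.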

How the data were processed

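RNA of small intestinal organoids was sequenced in 14 libraries as stranded mRNA in 50-base single reads. By the study's methods and the submitters' processing notes, reads were trimmed with cutadapt, aligned to GRCm38 with TopHat2, counted with HTSeq and analysed with DESeq2. Versions are not given in the sources used here. The authors deposited 1 table of values on a log2 scale, from a transformation that is not named. Sequencing depth is unknown, which precluded count models. All 14 columns were mapped to samples by library name. Symbols and coordinates came from GENCODE M21 for GRCm38, and promoter sequences from RefSeq (GRCm38.p6).

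The log2 values as deposited were fitted with limma 3.58.1 in R 4.3.3 (1 mean per genotype, mean trend, no covariate), with Benjamini-Hochberg adjustment at 0.05 over the 12802 genes whose mean was at least 3.32 (10 on the linear scale). The fit was tested on simulated data. Alternatives were other pseudocounts, filters and scalings, no mean trend, lane, replicate number as a block, lane 2 only, averaged pairs, only the groups compared, and leaving out each library. A sex covariate and fits of the low-*Xist* or lane 1 libraries were chosen after seeing the data. The same is true of the TATAAA and CACGTG searches. The members and all gene lists were chosen with earlier results of these data known. Named genes were the members, the deleted genes, the 3 genes most correlated with each tested member, pathway-list genes called in *Rnaseh2b*ΔIEC against *Atg16l1*ΔIEC, and defining cell markers. *Muc2*, *Cyba* and other list genes outside that rule were named after their values were seen. Protein sequences were not used here, and 1 correlated gene is not reported here. Python 3.11.15 and matplotlib 3.10.9 drew the figures.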

Additional observations from a re-analysis of the deposited data

Results flagged for a closer look

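The effect of *Rnaseh2b* deletion with *Atg16l1* deleted (*Atg16l1/Rnaseh2b*ΔIEC against *Atg16l1*ΔIEC) differed from that with *Atg16l1* present (*Rnaseh2b*ΔIEC against WT) for 4 members, by the limma test of the difference of differences. It differed by 1.04 for *Duox2* (adjusted p = 0.027), by 0.39 for *Duoxa2* (adjusted p = 0.025), by 0.82 for *Nos2* (adjusted p = 0.0061) and by -0.78 for *Pigr* (adjusted p = 0.0074), on the log2 scale. Of all genes 35.1% passed this test, and with lane as a covariate *Pigr* alone of the 4 members did. In the groups of 4, no library stood apart from the others by Dixon's test for any of the 6 members tested. The test looks for 1 distant library and cannot mark a pair. Its ratio was 0.05 for *Dmbt1* in *Atg16l1/Rnaseh2b*ΔIEC and for *Duox2* in WT, where the libraries fell into 2 pairs.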

How the results depend on the processing

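Both pseudocounts, the stricter filter, upper quartile and median scaling and the fit without a mean trend left the count of members called within 1.5 times of the reported one in all 6 comparisons, although *Duoxa2* and *Lcn2* lay below the stricter filter. With the paired libraries averaged, 0 members were called in every comparison. In that fit limma also called 0 to 2 of all 12802 genes, although 789 to 2773 had an unadjusted p under 0.05. In *Atg16l1*ΔIEC against WT the count fell from 1 to 0 without the filter, in the libraries with low *Xist* and in the fit of the groups compared alone. In *Rnaseh2b*ΔIEC against *Atg16l1*ΔIEC it was 2 in lane 2 alone, with low *Xist* and in the fit of the groups compared. In *Atg16l1/Rnaseh2b*ΔIEC against *Rnaseh2b*ΔIEC it fell from 3 to 1 without the filter and with a lane or sex covariate. With low *Xist* the libraries of *Atg16l1/Rnaseh2b*ΔIEC against *Atg16l1*ΔIEC gave 2, and for the difference of differences it fell from 4 to 1 with lane. Counts of all 12802 genes moved too. With low *Xist* 4050 were called in *Atg16l1*ΔIEC against WT (2450 in the reported fit), 2859 in *Rnaseh2b*ΔIEC against *Atg16l1*ΔIEC (872) and 6390 in *Atg16l1/Rnaseh2b*ΔIEC against *Atg16l1*ΔIEC (3218). For *Rnaseh2b*ΔIEC against *Atg16l1*ΔIEC, lane 2 alone gave 1056 and the groups compared 833. With lane the difference of differences gave 2580 (4499). Nothing particular to the members is read from their counts. The fit with low *Xist* holds 1 neighbouring pair per genotype and so no spread between pairs. Leaving out 1 library gave 1 to 3 members in *Rnaseh2b*ΔIEC against WT, 0 to 1 in *Atg16l1*ΔIEC against WT and in *Rnaseh2b*ΔIEC against *Atg16l1*ΔIEC, 0 to 2 in *Atg16l1/Rnaseh2b*ΔIEC against *Rnaseh2b*ΔIEC, 1 to 2 in *Atg16l1/Rnaseh2b*ΔIEC against *Atg16l1*ΔIEC, and 2 to 4 for the difference of differences. The causes were not tested, except that averaging leaves 7 values and the missing filter adds genes to the adjustment.

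The replicate number did not pair the samples: same-numbered libraries of 2 genotypes correlated at r = -0.41 to 0.45, above 0.1 in 4 of 12 cases. With the replicate block the count was 1 in *Atg16l1/Rnaseh2b*ΔIEC against *Rnaseh2b*ΔIEC, 2 in *Atg16l1/Rnaseh2b*ΔIEC against *Atg16l1*ΔIEC and 2 for the difference of differences, and *Lcn2* changed sign in *Rnaseh2b*ΔIEC against WT (0.00696) and in the difference of differences (-0.00282).

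Other reversals concerned differences that did not pass. *Lcn2* in *Rnaseh2b*ΔIEC against WT became 0.0177 with lane, 0.000321 with sex, 0.00722 with low *Xist* and 0.00109 without WT 4 (-0.0100 to 0.00109 without 1 library). *Lcn2* in *Atg16l1/Rnaseh2b*ΔIEC against *Atg16l1*ΔIEC became -0.000794 with median scaling, -0.00644 with lane and in lane 2, -0.0164 with low *Xist*, and -0.00881 to 0.0125 without 1 library. Its difference of differences became -0.0242 with lane, -0.0236 with low *Xist*, and -0.00537 to 0.0159 without 1 library. *Duox2* became -0.0253 in *Atg16l1/Rnaseh2b*ΔIEC against *Atg16l1*ΔIEC with lane and in lane 2, and 0.0896 in *Atg16l1*ΔIEC against WT with low *Xist*. *Duoxa2* in *Atg16l1*ΔIEC against WT became 0.0460 with lane, and *Pigr* in *Rnaseh2b*ΔIEC against *Atg16l1*ΔIEC became -0.0312 with low *Xist*. *Dmbt1* in *Rnaseh2b*ΔIEC against WT became -0.0562 with low *Xist*, and -0.14 to 0.27 without 1 library. The lane term rests on the 4 *Atg16l1/Rnaseh2b*ΔIEC libraries, where *Dmbt1* differed by pair. With it *Dmbt1* was 2.23 higher in *Atg16l1*ΔIEC and 1.77 higher in *Rnaseh2b*ΔIEC than in WT, and its difference of differences was -1.81, all given with no test because the *Atg16l1/Rnaseh2b*ΔIEC values chose the gene. *Dmbt1* in *Atg16l1/Rnaseh2b*ΔIEC against WT stayed between 0.36 and 2.18 in all settings, 1.04 to 1.63 without 1 library.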
